A study of Mus musculus with 6 samples.

Results

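The nuclear genes of the mitochondrial respiratory chain were compared between kidneys of mice labelled DHT and control, complex by complex. Members were taken by symbol from a table of 46095 rows. The symbols were those of NADH dehydrogenase (Nduf), succinate dehydrogenase (Sdha to Sdhd), the cytochrome bc1 complex (Uqcr and Cyc1), cytochrome c oxidase (Cox4 to Cox8) and ATP synthase (Atp5), without pseudogene names. Of 93 rows with such a symbol, 89 had a count of at least 10 in at least 3 of the 6 libraries and are the members. They comprise 80 subunit genes, 37 of complex I, 4 of complex II, 9 of complex III, 15 of complex IV and 15 of complex V. The other members are 7 assembly factors of complex I (Ndufaf genes) and the accessory genes Atp5s and Atp5sl. All 89 passed the filter on low counts, and none met the count rule through the libraries of 1 group alone. The rows left out were Ndufa7, Cox7b2, Cox8b and Cox8c. Just inside the count rule lay Cox4i2, with 4, 12 and 7 counts in DHT replicates 1, 2 and 3 and 1, 14 and 21 in the controls. Just outside lay Cox8b, with 1, 1 and 1 and with 1, 25 and 12.

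RNA was sequenced from kidney of mice on a C57BL/6 background, 3 samples whose treatment is DHT (dihydrotestosterone, a potent androgen) and 3 controls. DHT exposure is used in mice to model polycystic ovary syndrome, and the strain label of all 6 samples, controls included, reads PCOS mouse, so only the treatment label parts the groups. The study asked about kidney injury in this model. Age, dose and duration were not used here. Nothing in the labels ties each replicate to an animal of its own, and the p-values therefore reflect variation among these 6 samples, which may be technical.

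The respiratory chain carries electrons from NADH (complex I) and succinate (complex II) through coenzyme Q to complex III, and through cytochrome c to complex IV, where oxygen is reduced. Complexes I, III and IV pump protons across the inner mitochondrial membrane, and complex V uses the return flow to make ATP. Proximal tubule cells are rich in mitochondria, since the reabsorption of salt and solutes costs much ATP. Most subunits are encoded in the nucleus, and a small set in mitochondrial DNA.

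Libraries held 15054763 to 19331942 counts. The subunit genes took 2.16% to 2.38% of counts in the DHT libraries and 2.05% to 2.28% in the controls. Kidney markers were present: the summed level of 15 proximal tubule markers was 20100 to 27900 CPM in DHT (CPM are counts per 1e6, on library sizes scaled by TMM) and 17600 to 25300 CPM in control, with no marker at 0. DHT replicate 2 stood apart by its macrophage markers (9 genes, summed level 386 CPM against 108 to 246 CPM in the other 5 libraries), and control replicate 3 by its loop of Henle markers (7 genes, 11700 CPM against 4370 to 6810 CPM). In bulk tissue, fewer cells of a type and less RNA per cell cannot be told apart.

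Across complexes I to V, subunit levels leaned toward DHT by small amounts, and 1 subunit gene passed the test. Of the 80 subunits, 70 had a log2 fold change (DHT minus control) above 0, a share of 87.5% beside 50.3% over all 15367 genes tested. The median was 0.22 with a range from -0.40 to 0.90, beside 0.00 over all genes tested. By edgeR's quasi-likelihood test with Benjamini-Hochberg adjustment at 0.05, Ndufb4 was called higher and 0 were called lower. That is 1.25% of subunits called higher, near the background of 1.38% of all genes called higher; the background called lower was 1.46%. At an unadjusted p under 0.05, 20 subunits (25.0%) were higher and 0 lower, where 12.0% of all genes were higher and 12.0% lower. In 33 subunits (41.2%) every DHT library lay above every control library, against 14.8% of all genes. In 0 subunits did every DHT library lie below every control, against 15.0% of all genes. Genes that missed the threshold are not thereby shown to be equal.

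**Figure D1:**
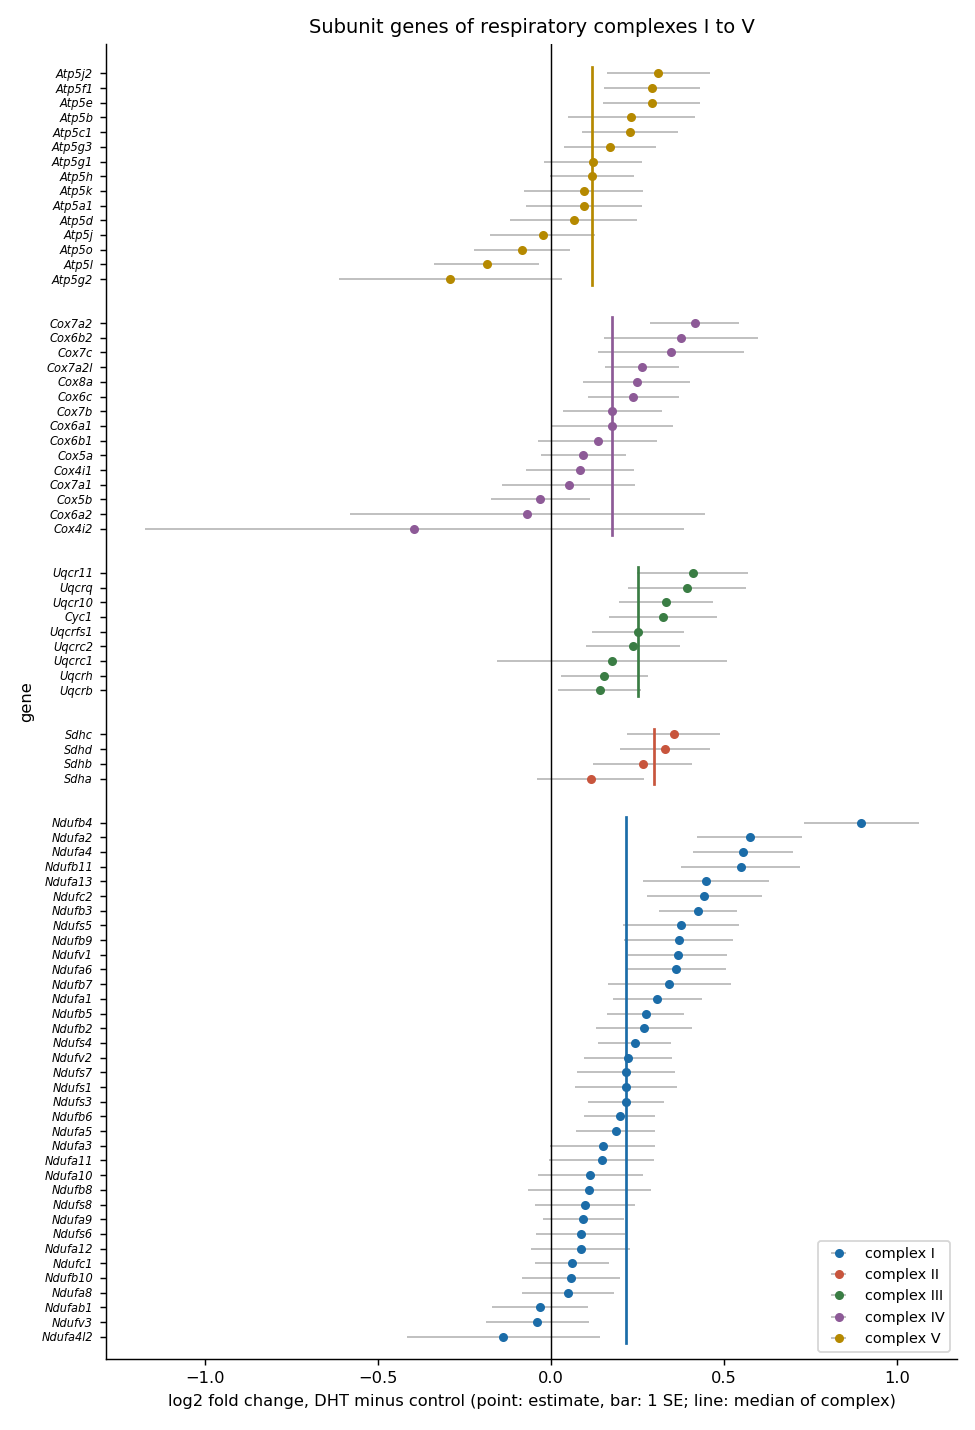
Each point is a subunit gene's log2 fold change, DHT minus control (n = 3 each), its bar 1 SE, and the coloured line the median of its complex. All but 1 of the 80 subunits are plotted, Ndufb4 farthest right at 0.90, and the medians run from 0.12 (complex V) to 0.30 (complex II).

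The complexes had medians of 0.22 (I), 0.30 (II), 0.25 (III), 0.18 (IV) and 0.12 (V). A fold change above 0 was found in 34 of 37 genes of complex I, 4 of 4 of complex II, 9 of 9 of complex III, 12 of 15 of complex IV and 11 of 15 of complex V. Groups that did not overlap, with DHT higher, were found in 17, 2, 6, 4 and 4 genes in that order. Over all genes tested, 50.3% were above 0 and 14.8% were apart with DHT higher. Differences between complexes were not tested.

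Within each library the median shift of a complex, set against the control mean, shows how the samples carry these values. For complex I it was 0.20, 0.12 and 0.37 in DHT replicates 1, 2 and 3. The controls, in the same order, were at -0.06, -0.01 and 0.05. Complex III ran alike, at 0.27, 0.13 and 0.32 in DHT and -0.06, -0.02 and 0.08 in control. In complexes I, II, III and V the 3 DHT libraries all lay above the 3 controls, with DHT replicate 3 highest and DHT replicate 2 the lowest of the 3. DHT replicate 2 is also the library with the most macrophage marker RNA, whose part in this was not tested. Those markers summed to 108, 386 and 246 CPM in DHT replicates 1, 2 and 3, so they did not follow the order of the medians. Without DHT replicate 2 the medians of complexes I to V were 0.27, 0.35, 0.29, 0.21 and 0.17. Without DHT replicate 1 they were 0.235, 0.305, 0.227, 0.221 and 0.153. Complex IV overlapped: its median over 15 genes was 0.05 in DHT replicate 1 and 0.06 in control replicate 3. That overlap depended on the minor isoform genes Cox4i2, Cox6a2, Cox6b2 and Cox7a1. The 11 other genes had medians of 0.18, 0.09 and 0.29 in DHT replicates 1, 2 and 3. Their control medians were -0.1, -0.01 and 0.05, so the groups were apart. Without DHT replicate 3 the median fold change of all 15 complex IV genes fell to 0.06. Without control replicate 3 that of complex III was 0.37.

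**Figure D2:**
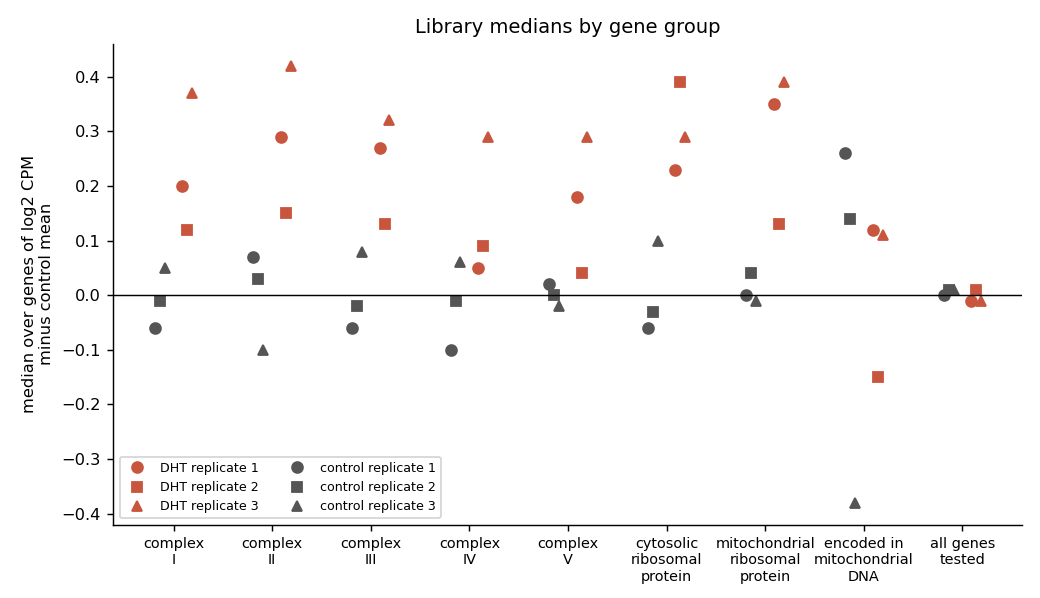
Each point is a library's median, over the genes of a complex or of 4 other sets (2 of ribosomal protein genes, the genes of mitochondrial DNA, all genes tested), of log2 CPM minus the control mean. DHT replicate 3 is highest in every complex, and the groups overlap in complex IV, where DHT replicate 1 is at 0.05 and control replicate 3 at 0.06, and in the genes of mitochondrial DNA.

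Complex I is the entry point for electrons from NADH, with a matrix arm that binds NADH and a membrane arm that pumps protons. Ndufb4, an accessory subunit of the membrane arm, rose. It lies on chromosome 16, 37647170 to 37654453, minus strand (GRCm38), and stood at 19.04, 16.03 and 20.88 CPM in DHT replicates 1, 2 and 3 against 9.78, 9.03 and 11.2 CPM in the controls. Every DHT library was above every control, with means of 18.65 ± 2.45 and 10.01 ± 1.12 CPM (SD, n = 3 each) and a log2 fold change of 0.90 ± 0.17 (SE, edgeR adjusted p = 0.0373). The values rest on 256 to 352 counts per DHT library and 159 to 227 per control library. The Ndufb4 call was lost with total counts as the scale (0.061), with the length correction (0.0648), and on leaving out DHT replicate 1 (0.11) or 3 (0.137) or any of the controls (0.0626, 0.14 and 0.0667 for control replicates 1, 2 and 3). Leaving out DHT replicate 2 kept it.

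Reads of Ndufb4 are also uncertain, because its sequence is repeated elsewhere. The whole coding sequence, 390 of the 971 bases of its transcript, is 100% identical to the processed pseudogene Ndufb4c on chromosome 15, to which the table's row Gm3244 corresponds. Gm3244 held 9, 2 and 6 counts in DHT replicates 1, 2 and 3 and 9, 8 and 6 in the controls. The sources used here do not say how reads that fit several places were counted.

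The subunits next in order of p missed the threshold narrowly. Ndufa4, counted here by its symbol and since assigned to complex IV, had the highest level per transcript length of the Nduf genes (621 CPM per kilobase). It measured 464, 410 and 479 CPM in DHT replicates 1, 2 and 3 and 281, 296 and 342 CPM in the controls, with no overlap (log2 fold change 0.56 ± 0.15, edgeR adjusted p = 0.0696). Ndufa4 passed with DESeq2 (0.00219) and without DHT replicate 2 (0.0436). Ndufa2, of the NADH-binding module, was even across DHT, at 114, 112 and 115 CPM, and spread across the controls, at 62.0, 73.9 and 93.5 CPM (0.57 ± 0.15, adjusted p = 0.0739). It passed with DESeq2 (0.0179) and with no filter on low counts (0.04). Ndufb3, a small membrane arm subunit, had the reverse spread, with 156, 142 and 132 CPM in DHT and 109, 105 and 106 CPM in control (0.42 ± 0.11, adjusted p = 0.0735). It passed with DESeq2 (0.013). Ndufa4, Ndufa2 and Ndufb3 did not pass with total counts (adjusted p = 0.118, 0.173 and 0.178) or limma-voom (0.0704, 0.0783 and 0.079). Over all genes DESeq2 called 1616 and the fit without DHT replicate 2 called 1224, beside 437 by edgeR on the 6 libraries. Ndufb3 shares 282 bases at 96.8% identity with a pseudogene on chromosome 12, and Ndufa2 overlaps 66 exonic bases of Tmco6 on the opposite strand.

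Membrane arm genes of the Ndufb series were all above 0, 10 of 10 with a median of 0.31, and 6 did not overlap. Of all genes tested, 50.3% were above 0 and 14.8% apart with DHT higher. The Ndufb genes had a median transcript length of 747.5 bases. In other genes from 600 to under 1000 bases the shares were 71.9% and 31.7%. Ndufb11 (0.55 ± 0.17, edgeR adjusted p = 0.105) read 180, 174 and 234 CPM in DHT replicates 1, 2 and 3 and 115, 128 and 159 CPM in control. Ndufb8 and Ndufb10 were near 0, at 0.11 ± 0.18 and 0.06 ± 0.14. Ndufb8 was second by level per length, at 430 CPM per kilobase. The 13 Ndufa genes had a median of 0.15 and 12 above 0, and the 8 Ndufs genes a median of 0.22 with 8 above 0.

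The modules of the matrix arm hold core and accessory subunits. The 8 genes of the NADH-binding module had a median of 0.22 (7 above 0), and the 5 of the module that reduces coenzyme Q also 0.22 (5 above 0). Ndufv1, which holds the NADH site, was at 320, 281 and 371 CPM in DHT replicates 1, 2 and 3 against 245, 248 and 261 CPM in the controls (0.37 ± 0.14, edgeR adjusted p = 0.167). Below 0 were Ndufv3 (-0.04), Ndufab1, the acyl carrier protein (-0.03), and Ndufa4l2, a paralog of Ndufa4 known to be raised by hypoxia (-0.14).

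Complex II, which also works in the citric acid cycle, is encoded wholly in the nucleus. Its membrane anchors had the larger values. Sdhc measured 396, 367 and 427 CPM in DHT replicates 1, 2 and 3 and 320, 323 and 288 CPM in the controls, without overlap (log2 fold change 0.35 ± 0.13, edgeR adjusted p = 0.157; 0.0496 with DESeq2, which called it). Sdhd measured 364, 358 and 388 CPM against 313, 295 and 276 CPM, also apart (0.33 ± 0.13, adjusted p = 0.167). The iron-sulfur subunit Sdhb overlapped by 1 DHT library, with DHT replicate 2 at 256 CPM below control replicate 3 at 260 CPM (0.27 ± 0.14, adjusted p = 0.293). The flavoprotein Sdha, the most abundant at 336 CPM per kilobase, overlapped more widely, with 1007, 933 and 1096 CPM in DHT and 998, 948 and 857 CPM in control (0.12 ± 0.15, adjusted p = 0.686).

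Complex III passes electrons from coenzyme Q to cytochrome c. All 9 fold changes were above 0 and 6 genes did not overlap, with 0 called by edgeR and 3 at an unadjusted p under 0.05. The shares over all genes were 14.8% apart with DHT higher and 12.0% higher at that p. Uqcr11, a small subunit, was at 151, 153 and 211 CPM in DHT replicates 1, 2 and 3 and 120, 126 and 142 CPM in the controls (0.41 ± 0.16, edgeR adjusted p = 0.166). Its highest value came from DHT replicate 3. Uqcr10, the highest of the complex per length (647 CPM per kilobase), was at 307, 283 and 349 CPM against 239, 245 and 262 CPM (0.33 ± 0.14, adjusted p = 0.178). Short stretches of Uqcr11 (171 bases, 98.8%) and Uqcr10 (191 bases, 95.8%) recur at other loci. Uqcrq (0.39 ± 0.17, adjusted p = 0.203) and Cyc1, the cytochrome c1 that hands electrons on (0.32 ± 0.16, adjusted p = 0.246), each had 1 DHT library below the highest control. Uqcrh, the hinge protein, was at 346, 339 and 371 CPM against 325, 317 and 305 CPM (0.15 ± 0.13, adjusted p = 0.482). Its groups were apart by a narrow margin.

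Uqcrc1 and Ndufa7 had almost no reads. Uqcrc1, a core subunit of complex III, held 31 to 77 counts per library while its partner Uqcrc2 held 7165 to 8829. Within 100000 bases of Uqcrc1, 2 of 5 other protein-coding genes had 0 counts over all 6 libraries. The rest, Slc26a6, Col7a1 and Pfkfb4, had totals of 272, 391 and 1125. Ndufa7, a complex I subunit, held 0 or 1 count per library, and 9 of 11 neighbours in the same window had fewer than 30 counts in total. Why the 2 genes read so low was not tested, and their values are not read as expression levels. The fold change of Uqcrc1 (0.18 ± 0.33) carries little weight, though it is counted among the 9 of complex III and in their median.

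Complex IV reduces oxygen. Cox7a2, its common form of subunit VIIa, measured 227, 210 and 255 CPM in DHT replicates 1, 2 and 3 and 178, 160 and 180 CPM in the controls, apart (log2 fold change 0.42 ± 0.13, edgeR adjusted p = 0.104; 0.0268 with DESeq2, which called it). Cox7a2l, listed here also with the genes of supercomplexes (complexes joined together), was at 138, 149 and 136 CPM against 116, 116 and 120 CPM, apart (0.26 ± 0.11, edgeR adjusted p = 0.178). Cox6c was at 491, 489 and 516 CPM against 445, 418 and 406 CPM, apart (0.24 ± 0.13, adjusted p = 0.302). The 2 most abundant subunits per length showed overlap, while Cox6c, close behind them at 916 CPM per kilobase, was apart. Cox4i1 (1098 CPM per kilobase) was at 792, 803 and 997 CPM in DHT and 837, 791 and 819 CPM in control, where DHT replicate 3 alone stood above the controls (0.08 ± 0.16, adjusted p = 0.779). Cox8a (932 CPM per kilobase) was at 548, 497 and 626 CPM against 420, 504 and 483 CPM (0.25 ± 0.15, adjusted p = 0.359). Cox5b was at -0.03 ± 0.14.

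Several subunits of complexes IV and V exist as isoforms, of which kidney is known to use the general forms. The minor forms were scarce in both groups. Cox4i2, the form linked to low oxygen, stood at 0.0556 ± 0.0332% of the Cox4i1 level in DHT and 0.0754 ± 0.0615% in control (SD, n = 3 each). Cox6a2, of heart and muscle, stood at 0.206 ± 0.0462% of the Cox6a1 level and 0.258 ± 0.151%, and Cox6b2, of testis, at 1.77 ± 0.51% of the Cox6b1 level and 1.44 ± 0.174%. Ratios overlapped between the groups in those pairs. Cox7a1, the muscle form, was 4.20, 4.09 and 4.57% of Cox7a2 in DHT replicates 1, 2 and 3 and 4.88, 5.76 and 5.97% in the controls, lower in every DHT library. Cox7a1 itself had a log2 fold change of 0.05 ± 0.19 (edgeR adjusted p = 0.888). Ndufa4l2 was 0.785, 1.01 and 0.793% of Ndufa4 in DHT and 1.36, 1.12 and 1.63% in control, again apart. Ndufa4l2 itself overlapped between the groups, at -0.14 ± 0.28 (edgeR adjusted p = 0.795). The major forms Cox7a2 and Ndufa4 were higher in every DHT library, which lowers both ratios. Testis-type Cox7b2 and Cox8c held 0 counts in every library, and muscle-type Cox8b held 1 to 25.

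Complex V had the lowest median. Its F1 head, which makes ATP, had 5 of 5 genes above 0 (median 0.23), and its stalk and membrane part 6 of 10 (median 0.11). The catalytic subunit Atp5b, the most abundant member per length (1510 CPM per kilobase), was at 3037, 2703 and 3642 CPM in DHT replicates 1, 2 and 3 and 2603, 2629 and 2749 CPM in the controls (0.23 ± 0.18, edgeR adjusted p = 0.468). DHT replicate 3 was far above the rest, and DHT replicate 2 lay within the controls. Atp5a1, its partner in the head (939 CPM per kilobase), was at 2346, 2174 and 2667 CPM against 2278, 2241 and 2210 CPM (0.10 ± 0.17, adjusted p = 0.764). Atp5c1, the rotating shaft, did not overlap, at 555, 519 and 594 CPM against 503, 475 and 446 CPM (0.23 ± 0.14, adjusted p = 0.347).

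In the stalk and membrane part, Atp5f1, subunit b of the stalk, did not overlap, at 551, 486 and 568 CPM in DHT replicates 1, 2 and 3 against 446, 448 and 416 CPM in the controls (0.29 ± 0.14, edgeR adjusted p = 0.238). It shares 696 bases at 98.7% identity with a pseudogene. Atp5e, the epsilon subunit of the head (0.29 ± 0.14, adjusted p = 0.242), and Atp5j2, subunit f of the membrane part (0.31 ± 0.15, adjusted p = 0.245), overlapped. The c-ring gene Atp5g3 was at 614, 593 and 583 CPM against 537, 535 and 519 CPM, apart by a small step (0.17 ± 0.13, adjusted p = 0.463). Atp5g1, which encodes the same mature protein, was 17.4 ± 2.05% of Atp5g3 in DHT and 18.0 ± 3.14% in control, and Atp5g2 0.386 ± 0.0738% and 0.533 ± 0.125%. Atp5g2 is 100% identical to Gm10175 over 645 bases, 88.2% of its transcript, so its 30 to 59 counts per library are an uncertain level. Below 0 were Atp5l (-0.18), Atp5o (-0.08), Atp5j (-0.02) and Atp5g2 (-0.29), all overlapping. Atp5l shares 394 bases at 96.7% identity with a pseudogene.

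**Figure D3:**
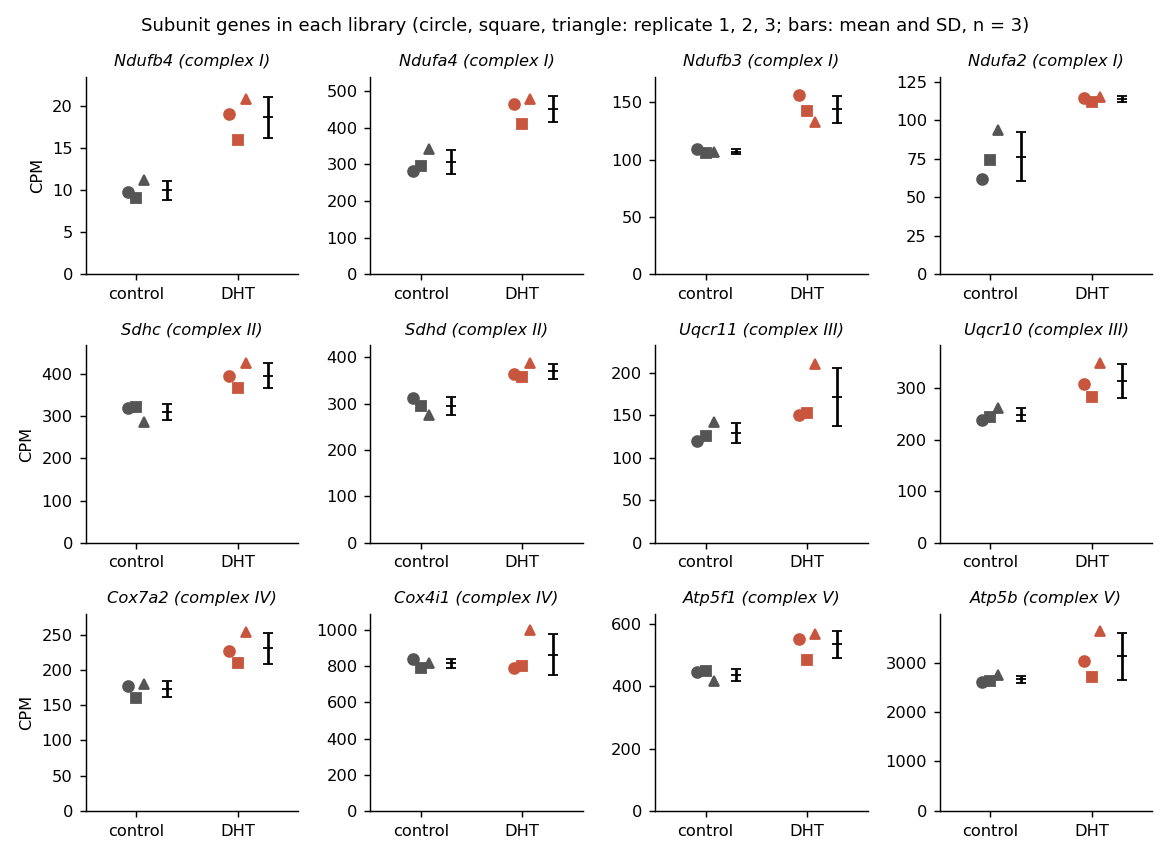
Levels of 12 subunit genes in each library in CPM, DHT beside control, with the mean and SD (n = 3 each) to the right of each group. Groups are apart in Ndufb4, Ndufa4, Ndufb3, Ndufa2, Sdhc, Sdhd, Uqcr11, Uqcr10, Cox7a2 and Atp5f1, and overlap in Cox4i1 and Atp5b.

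Complexes are built with the help of assembly factors, which are not part of the finished enzyme. Of the 7 Ndufaf members 7 were above 0 (median 0.23), with 0 called, beside 50.3% above 0 and 1.38% called higher over all genes. Ndufaf3 had the smallest p of them, at 24.2, 21.7 and 29.4 CPM in DHT replicates 1, 2 and 3 and 13.8, 15.7 and 19.2 CPM in control (0.63 ± 0.17, edgeR adjusted p = 0.0779; 0.0296 with DESeq2). In the wider list of complex I assembly factors 0 of 16 tested were called and 14 were above 0. Tmem126a was lowest in p there, at 40.6, 37.2 and 39.9 CPM against 31.7, 27.8 and 26.5 CPM (0.45 ± 0.12, adjusted p = 0.0673).

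Factors for complexes II and IV held 1 called gene each, of 4 and 23 tested, beside 1.38% of all genes called higher. Sdhaf1, which helps insert iron-sulfur clusters into Sdhb, rose, from 17.1, 18.4 and 17.2 CPM in the controls to 40.9, 26.8 and 36.4 CPM in DHT replicates 1, 2 and 3 (log2 fold change 0.98 ± 0.17, edgeR adjusted p = 0.0302). It was 1 of 4 in its list, and 1733 of its exonic bases overlap the opposite-strand gene E130208F15Rik, whose reads cannot be told apart without strand. Omitting DHT replicate 1 (0.0908) or 3 (0.126), or control replicate 2 (0.124) or 3 (0.0783), ended the Sdhaf1 call. Sdhaf4 had 20.04, 14.3 and 18.2 CPM against 12.3, 12.7 and 13.3 CPM (0.46 ± 0.16, adjusted p = 0.135).

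Coa6, a copper-handling factor of complex IV, rose, from 21.2, 22.7 and 21.7 CPM in the controls to 41.1, 36.8 and 44.9 CPM in DHT replicates 1, 2 and 3 (0.90 ± 0.12, edgeR adjusted p = 0.0155). Its groups were far apart. Omitting DHT replicate 1 (0.0626) or 3 (0.0943), or control replicate 2 (0.0808), ended the Coa6 call. Of 23 complex IV factors tested, 21 were above 0 and 1 was called; Surf1 was next at 0.48 ± 0.11 (adjusted p = 0.0588). Complex III factors were split, 3 above 0 and 3 below with 0 of 6 called. Uqcc3 was at 26.8, 26.9 and 27.8 CPM in DHT against 16.3, 15.1 and 21.8 CPM in control, and Lyrm7, a chaperone of the iron-sulfur subunit Uqcrfs1, at 4.52, 4.32 and 3.08 CPM against 6.03, 6.12 and 7.03 CPM. Complex V factors had 0 of 5 called.

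Coenzyme Q, the mobile carrier between complexes, has its own synthesis genes, of which 1 of 13 tested was called. The share of all genes called higher was 1.38%. Coq10b, a coenzyme Q binding protein, rose, from 38.7, 30.8 and 27.5 CPM in the controls to 110, 73.3 and 80.7 CPM in DHT replicates 1, 2 and 3 (log2 fold change 1.44 ± 0.19, edgeR adjusted p = 0.0155). It shares 461 bases at 97.2% identity with a pseudogene. For Coq10b the same omissions ended the call (0.0543, 0.0943 and 0.0847). Adck3 (Coq8a) was on the low side, at 104, 118 and 138 CPM in DHT against 177, 205 and 152 CPM in control (-0.57 ± 0.16, adjusted p = 0.0804). Of 6 cytochrome c and supercomplex genes tested, 0 were called.

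The 21 regulators of mitochondrial gene expression tested act on nuclear genes or on mitochondrial DNA. Of these, 7 had a fold change above 0 and 14 below, with a median of -0.11, and 1 was called. Over all genes, 50.3% were above 0 and 1.46% called lower. The regulators had a median transcript length of 3755 bases. In other genes from 2000 to under 4000 bases 49.8% were above 0, and at 4000 and over 35.9%. The part of length in the regulators' values was not tested. Ppargc1a, the coactivator PGC-1alpha that drives mitochondrial gene programs, fell, from 120, 121 and 129 CPM in the controls to 91.8, 77.0 and 87.5 CPM in DHT replicates 1, 2 and 3 (log2 fold change -0.53 ± 0.11, edgeR adjusted p = 0.0491). It sat at the threshold, and every omission of 1 library ended the call (0.0519 to 0.151), as did limma-voom (0.055), no robust step (0.0501) and the length correction (0.0998). Its relative Ppargc1b was at 23.2, 24.7 and 18.1 CPM against 36.4, 34.1 and 30.7 CPM (-0.62 ± 0.15, adjusted p = 0.0595). Perm1, a muscle regulator acting with these coactivators, was at 5.15, 4.70 and 5.52 CPM against 8.48, 11.5 and 18.5 CPM (-1.32 ± 0.29, adjusted p = 0.0505), and passed with DESeq2 (0.00121), with no filter on low counts (0.00948) and without control replicate 1 (0.0268). Perm1 did not pass with total counts (adjusted p = 0.0554) or limma-voom (0.0795). DHT libraries were the lower ones in Ppargc1a, Ppargc1b and Perm1. Of the 21 regulators, 4 were apart with DHT lower and 2 with DHT higher, beside 15.0% and 14.8% of all genes tested.

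Of the DNA-binding factors of this program, Esrra had a log2 fold change of 0.17 ± 0.14, Nrf1 of -0.08 ± 0.15 and Gabpa of -0.11 ± 0.12, each with overlapping groups (edgeR adjusted p = 0.483, 0.77 and 0.614). Tfam, which packages and transcribes mitochondrial DNA, was at 67.2, 54.3 and 61.9 CPM in DHT replicates 1, 2 and 3 and 52.8, 45.9 and 41.7 CPM in control, apart (0.39 ± 0.13, adjusted p = 0.126).

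**Figure D4:**
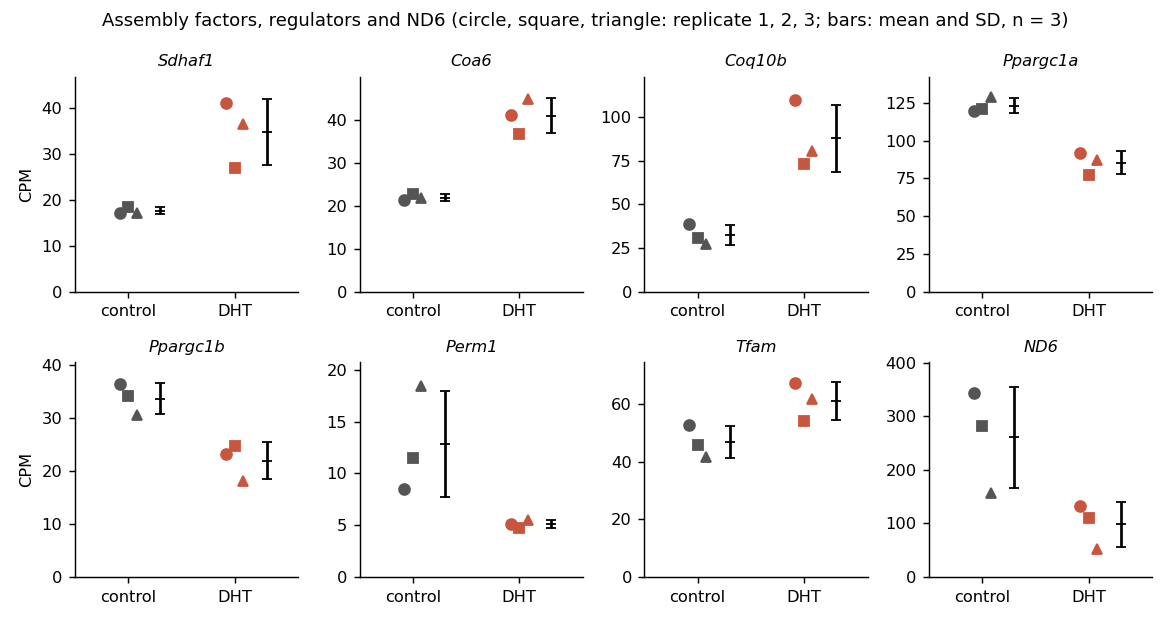
Levels of 8 genes outside the subunit set in each library in CPM, DHT beside control, with the mean and SD (n = 3 each) to the right of each group. The called genes Sdhaf1, Coa6 and Coq10b are higher in every DHT library and Ppargc1a is lower; Ppargc1b, Perm1, Tfam and ND6 also have groups that do not overlap but were not called.

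Promoter sequence from RefSeq (GRCm38.p6, 250 bases before to 50 after a gene's start) was matched for 65 of the 80 subunits, with 69 promoters. Each was searched on both strands for the binding words of 4 regulators known for this gene class. The NRF1 word, given in capitals in Cox6a1 below, was in 5 (7.2%) against 1.0% of all 32851 promoters, the ETS word of GABPA, CCGGAAG, in 16 (23.2%) against 8.9%, the ERR word TCAAGGTCA in 2 (2.9%) against 0.4%, and the YY1 word, the first in capitals in Atp5j, in 5 (7.2%) against 0.9%. None of these words contains another. A match is a description of letters and not a measured site. As examples that hold a pair of the words, the upstream stretches of Cox6a1 (chr5:115348959-115349136, minus strand, an NRF1 and a reversed ETS word) and Atp5j (chr16:84835015-84835080, minus strand, a YY1 and an ETS word) are shown 5′ to 3′ on the gene's strand, the words in capitals.
Cox6a1: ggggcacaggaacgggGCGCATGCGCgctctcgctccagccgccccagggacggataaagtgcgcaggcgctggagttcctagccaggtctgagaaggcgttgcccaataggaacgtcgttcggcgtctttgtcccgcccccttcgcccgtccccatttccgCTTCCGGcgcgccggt
Atp5j: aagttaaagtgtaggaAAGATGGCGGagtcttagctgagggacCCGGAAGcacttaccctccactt
In Cox6a1 the words begin 162 and 16 bases before the RefSeq start. The ETS word there lies within the GENCODE gene model, which spans 115345642 to 115348981. Atp5j has 2 RefSeq promoters; the words begin 88 and 61 bases before the start of the inner one, within the GENCODE gene model, and the outer one holds none of the 4 words. The region shown also lies within the GENCODE model of Gabpa, on the opposite strand (84834925 to 84863779, plus strand). Neither gene was called: Cox6a1 was at 0.18 ± 0.18 and Atp5j at -0.02 ± 0.15.

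Of the 13 subunits encoded in mitochondrial DNA 0 were called and 6 had a fold change above 0, with a median of -0.02. Over all genes tested, 1.38% were called higher, 1.46% were called lower and 50.3% were above 0. Groups were apart with DHT lower in 1 of the 13 and with DHT higher in 0, beside 15.0% and 14.8% of all genes. The 13 genes took 12.2% to 13.0% of counts in DHT and 11.4% to 14.9% in control. COX1, the catalytic core of complex IV, was at 53540, 47080 and 52530 CPM in DHT replicates 1, 2 and 3 and 56600, 56750 and 44030 CPM in the controls, and control replicate 3 was the lowest library. ND6, the complex I subunit encoded on the other strand of the mitochondrial genome, was at 132, 110 and 51.3 CPM against 343, 282 and 157 CPM, apart (-1.41 ± 0.41, edgeR adjusted p = 0.101; 0.00166 with DESeq2). ND6 read 864 to 2107 counts per DHT library and 3175 to 5574 per control library. COX2, COX3, ATP6, ND3 and ND4L have nuclear copies at 99.7% to 100% identity over at least 99.0% of their length. COX3, for example, held 740 to 1110 counts per library, so the level of these 5 genes is uncertain.

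Subunit transcripts are short, and short transcripts of other genes also leaned toward DHT. The median transcript length was 835 bases for subunits and 2832 for all genes with a length, and across 14623 genes fold change fell with length (Spearman rho -0.25, Pearson r -0.16 with log2 length; genes are not independent replicates). Among 4471 other genes under 2000 bases the median fold change was 0.17 and 66.8% were above 0, while the 72 subunits in that range had a median of 0.22 and 63 above 0. Groups were apart with DHT higher in 25.9% of those other genes and in 31 of the 72 subunits. The order of the medians varied with the length range. Other genes were higher under 600 bases (0.25 against 0.21 in 20 subunits) and from 600 to under 1000 bases (0.24 against 0.14 in 29). Subunits were higher from 1000 to under 2000 bases (0.24 in 23 against 0.15), from 2000 to under 4000 (0.11 in 6 against 0.00) and at 4000 and over (0.20 in 2 against -0.10). With the length trend removed in each library, 48 of 80 subunits remained above 0, with medians of 0.09, 0.14, 0.15, -0.01 and -0.02 for complexes I to V, and 0 were called.

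**Figure D5:**
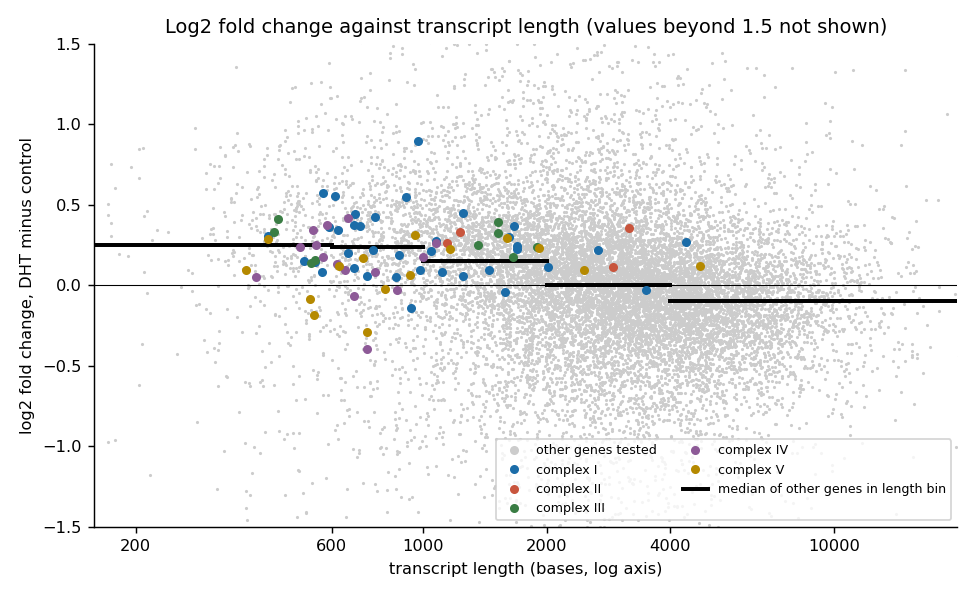
Each point is a tested gene's log2 fold change (DHT minus control) against its transcript length on a log axis, subunits coloured by complex, other genes grey, and black lines the median of other genes in 5 length ranges. The black lines fall from 0.25 under 600 bases to -0.10 at 4000 bases and over.

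Ribosomal protein genes, another set of short and abundant messages, are given beside the subunits with no test of the difference. The 92 cytosolic ribosomal protein genes had a median of 0.29 with 79 above 0 and 3 called higher (Rpl34 and Rps19 among them), beside 1.38% of all genes, and 39 higher at an unadjusted p under 0.05, beside 12.0%. The 76 mitochondrial ones had a median of 0.30 with 73 above 0, 35 higher at an unadjusted p under 0.05 and 3 called higher (Mrpl12, Mrps18c and Mrps9). Total counts as the scale moved the median of all genes to -0.10, and 55 of 80 subunits were then above 0 and 70 above that median. The part of transcript length, cell composition or library scaling in each subunit's value was not tested beyond these measurements.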

How the data were processed

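Kidney RNA of 3 DHT and 3 control samples was sequenced. Trizol extraction and Illumina mRNA library preparation are stated per the labels' protocols. The submitters' processing notes name HISAT2 2.0 and the build mm10. The deposited file holds raw counts per gene symbol, whole numbers without normalization. For the counting tool, its annotation and the strand setting the sources give no entry.

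Counts were tested with edgeR 4.0.16 (R 4.3.3): filterByExpr (minimum count 10, minimum total 15), TMM scaling, a robust quasi-likelihood fit on the group, and Benjamini-Hochberg adjustment at 0.05 over 15367 genes. SE is the value the F statistic implies, and CPM use TMM-scaled library sizes. Medians over gene lists are descriptions without a test. Members and lists were chosen with earlier results of these data known.

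Named genes were those called, the 4 smallest p and 2 highest levels per length in each complex, isoform pairs, the called genes and 2 smallest p of each other list, and Ppargc1a, Esrra, Nrf1, Gabpa and Tfam. Others (such as Ndufb10, Ndufb11, Ndufv1, Uqcrc1, Cox5b, Sdhaf4, Atp5o) were chosen after their values were seen.

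Alternatives tried were DESeq2's median-ratio scaling, total counts, other low-count filters, DESeq2 1.42.0, limma-voom (limma 3.58.1), no robust step, a replicate block, a loess length correction (span 0.3) and leaving out each library. Lengths and positions came from GENCODE M21 (GRCm38, the assembly of mm10) by symbol, for 95.2% of tested genes. Of the 80 subunits, 25 have a stretch of at least 100 bases at 95% identity elsewhere, 26 overlap exons of an opposite-strand gene and 5 of a same-strand gene. Some items are not reported here. The edgeR procedure was tested on simulated data.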

Additional observations from a re-analysis of the deposited data

How the results depend on the processing

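All genes called numbered 437. In the table of alternatives DESeq2 called 1616 and no low-count filter 852, and there were 85 with the replicate block, 232 with the length correction and 0 to 1224 when 1 library was left out (19, 1224 and 0 on omitting DHT replicates 1, 2 and 3; 7 and 89 on omitting control replicates 2 and 3). The count of subunits called higher was 1 and became 0 with total counts, the length correction or the replicate block (Ndufb4 adjusted p = 0.0692), 2 with no low-count filter (Ndufa2 and Ndufb4), 7 with DESeq2 (Cox7a2, Ndufa2, Ndufa4, Ndufb11, Ndufb3, Ndufb4 and Sdhc) and 0 to 3 with 1 library left out (3 without DHT replicate 2, 0 in each of the other omissions). Subunits called lower were 0 in all of these settings. Over all genes, edgeR on the 6 libraries called 212 of 15367 higher and DESeq2 called 846 of 15367 higher. With no low-count filter 418 of 25414 were called higher, and without DHT replicate 2 it was 745 of 15772.

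With total counts, the medians of complexes I to V were 0.11, 0.19, 0.14, 0.06 and 0.006, and with the length correction 0.086, 0.14, 0.15, -0.013 and -0.021, so that complexes IV and V changed sign. Leaving out 1 library gave 0.227 to 0.366 for complex III and 0.063 to 0.221 for complex IV. Labels give both groups the numbers 1 to 3, but deviations of same-numbered libraries did not correlate (0.07, -0.15 and 0.03), so the numbers were not taken to pair samples; under the replicate block the adjusted p of Coa6 was 0.0537, of Sdhaf1 0.076, of Ppargc1a 0.0969 and of ND6 0.0257. Of the named genes none changed sign with a call. The scarce forms Cox4i2 and Cox6a2 (1 to 27 counts per library) limit what their ratios show.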

Other observations

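Other names of complex V genes stand outside the symbol rule. Usmg5, a small membrane subunit, was at 175, 158 and 146 CPM in DHT replicates 1, 2 and 3 and 110, 124 and 127 CPM in the controls (log2 fold change 0.41 ± 0.12, edgeR adjusted p = 0.101), apart but not called. The gene 2010107E04Rik (Atp5mpl in GENCODE) was at 0.10 ± 0.12 (adjusted p = 0.652) and Atpif1, the inhibitor of ATP hydrolysis by complex V, at 0.24 ± 0.18 (adjusted p = 0.438), both overlapping.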
